A study of Mus musculus with 6 samples.

Results

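Aminoacyl-tRNA synthetases are the enzymes that join each amino acid to its transfer RNA. The members here were 36 mouse genes taken from a fixed list of names and matched by gene identifier to the mouse annotation, out of 54446 genes in the count table. They fell into 20 genes for enzymes of the cytosol and 16 genes, marked by a trailing 2 in the symbol, for enzymes that work in mitochondria. All 36 passed the filter on low counts. RNA was sequenced from TRAMP-C2, a mouse prostate cancer cell line of male C57BL/6 origin that was established from a tumour of the TRAMP transgenic model. The 3 groups were control cells with no agent, cells given oxaliplatin at 2 µM and cells given cisplatin at 2 µM, each for 24 h and each with 2 libraries. All groups shared the same culture medium with insulin and dehydroisoandrosterone. The labels do not say whether replicate libraries came from separate cultures, so p-values measure the spread between these libraries, which may be technical, and a single cell line stands for the tumour.

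Each synthetase is usually specific for a single amino acid, and the enzymes divide into classes I and II by the fold of their catalytic domain. Several cytosolic enzymes sit in a multi-synthetase complex held together by the scaffold proteins AIMP1, AIMP2 and AIMP3, the last of which is encoded by Eef1e1. Mitochondria translate their own messenger RNAs with a separate set of nuclear-encoded synthetases, except that Gars and Kars each encode both the cytosolic and the mitochondrial form. Many cytosolic synthetase genes are known targets of ATF4, a transcription factor whose translation rises when eIF2 is phosphorylated under amino acid shortage or stress and which also induces genes of amino acid synthesis and transport. ATF4 pairs with C/EBP proteins on a composite DNA element. Oxaliplatin and cisplatin are both platinum drugs that bind DNA and differ in the ligands around the metal, with a cyclohexanediamine carrier and an oxalate leaving group in the former and ammine and chloride ligands in the latter.

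Library totals ranged from 21345312 to 24041767 counts, so that 3 counts in a library made 0.125 to 0.141 CPM (counts scaled to library size). Replicate libraries correlated at 0.986 to 0.988 in log2 counts across genes. The prostate marker Pbsn had 0 counts in every library and Epcam had at most 1.97 normalised counts, whereas Cdh1 had 369 to 573, the epithelial keratin genes Krt8 and Krt18 95.2 to 169.6 and Vim, a mesenchymal marker, 52895 to 68052 normalised counts. Ptprc, a leukocyte marker, had at most 1.02 normalised counts and Pecam1, an endothelial marker, at most 7.84. Col1a1, a fibroblast collagen gene, had 95929 to 129469 normalised counts and was lower after each drug, with a log2 fold change of -0.26 after oxaliplatin and -0.34 after cisplatin, and its part in the synthetase results was not tested.

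The composite element for ATF4 and C/EBP, written TGATGNAA and searched on both strands, is shown first because ATF4 is known to act through it on synthetase genes. The 12 cytosolic genes taken as known ATF4 targets were Aars, Cars, Eprs, Gars, Iars, Lars, Mars, Nars, Sars, Tars, Wars and Yars. RefSeq promoters, spanning 250 bases before to 50 bases after each gene start on GRCm38.p6, were held for 27 of the 36 members. Cars, Hars, Lars, Nars, Rars, Vars, Wars, Hars2 and Pars2 had no entry. Aars2 had 2 overlapping entries, so that the 15 mitochondrial promoters came from 14 genes. The element was present in 5 of 8 promoters of listed ATF4 targets (62.5%), in 0 of 5 promoters of the other cytosolic genes and in 0 of 15 promoters of mitochondrial genes, against 3.97% of all 32851 promoters. The list was taken from known ATF4 targets, so the higher share among them is descriptive. All promoters were not limited to genes tested here. 1 window for each of the 5 genes with the element follows on the strand of the gene, with the element in capitals. Where the element lies on the other strand its reverse complement is seen. Positions are counted from the first transcribed base taken as 0.
Aars, alanine, chr8:111033840-111033869, plus strand, 9 bases after the start: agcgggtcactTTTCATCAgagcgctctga
Gars, glycine, chr6:55037960-55037989, plus strand, 30 bases before the start: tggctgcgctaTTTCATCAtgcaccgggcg
Tars, threonine, chr15:11399655-11399684, minus strand, 15 bases before the start: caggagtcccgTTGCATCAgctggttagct
Iars, isoleucine, chr13:49682126-49682155, plus strand, 7 bases after the start: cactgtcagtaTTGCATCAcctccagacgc
Yars, tyrosine, chr4:129189895-129189924, plus strand, 3 bases after the start: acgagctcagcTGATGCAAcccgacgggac

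The promoters without the element are illustrated by members that rose after a drug, so these windows were picked by outcome. The ETS motif CCGGAAG was found in 5 of 13 cytosolic promoters (38.5%) and 4 of 15 mitochondrial promoters (26.7%), against 8.86% of all promoters, and the NRF1 motif in 3 of 13 (23.1%) and 2 of 15 (13.3%), against 4.6% of all. The E-box CACGTG was found in 4 of 13 cytosolic promoters and 1 of 15 mitochondrial promoters, against 7.15% of all. Each motif was searched on both strands. A match describes the letters of the window and is not evidence of binding. The ETS motif was also in the promoters of Gars, Mars and Sars, which fell after oxaliplatin, although Gars and Sars rose after cisplatin. Cars2, Rars2 and Sars2 held it too and did not pass the test against control after either drug. Dars, Farsb and Yars2 rose after oxaliplatin without an ETS match, and Aars, Eprs, Tars and Iars2 fell without one. After cisplatin Aars, Iars, Qars, Yars and Yars2 rose without one. The motif thus did not mark the genes that rose. ETS motifs are shown in capitals in the next 3 windows.
Farsa, phenylalanine alpha chain, chr8:84856953-84856981, plus strand, 22 bases before the start: cgctatcgcgaCTTCCGGttccagttccg
Kars, lysine, chr8:112011343-112011371, minus strand, 6 bases before the start: cgccctctttcCCGGAAGaggcaggactt
Mars2, mitochondrial methionine, chr1:55237143-55237171, plus strand, 23 bases before the start: tggcttccgcgCCGGAAGcggcggtaccg

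In control cells the cytosolic enzymes were the more abundant mRNAs. Per kilobase of annotated exon, the level was highest for Gars, at 2797 normalised counts per kb, followed by Nars at 2492, Kars at 1663, Aars at 1466 and Hars at 1387. The control libraries of these 5 genes did not overlap with those of the next gene in the order. Sars, Iars, Rars, Vars and Tars followed at 1227 to 1095 normalised counts per kb, with overlapping libraries between neighbours, and Cars was the lowest cytosolic gene at 308. The median over the cytosolic genes was 1070.0 normalised counts per kb, and that over the mitochondrial genes was 78.2. Lars2 ranked 18 of 36 at 503 normalised counts per kb and was the only mitochondrial gene above any cytosolic gene. Its level overlapped with that of Yars, at 517, but not with that of Qars, at 438. Iars2 at 219.8, Rars2 at 194 and Yars2 at 193 came next among the mitochondrial genes, and Mars2 at 22.7 and Nars2 at 21.2 were the lowest and overlapped with each other. Annotated exons include long untranslated parts in some genes, such as Mars2 with 11294 exon bases, and a level per kilobase depends on that length.

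**Figure D1:**
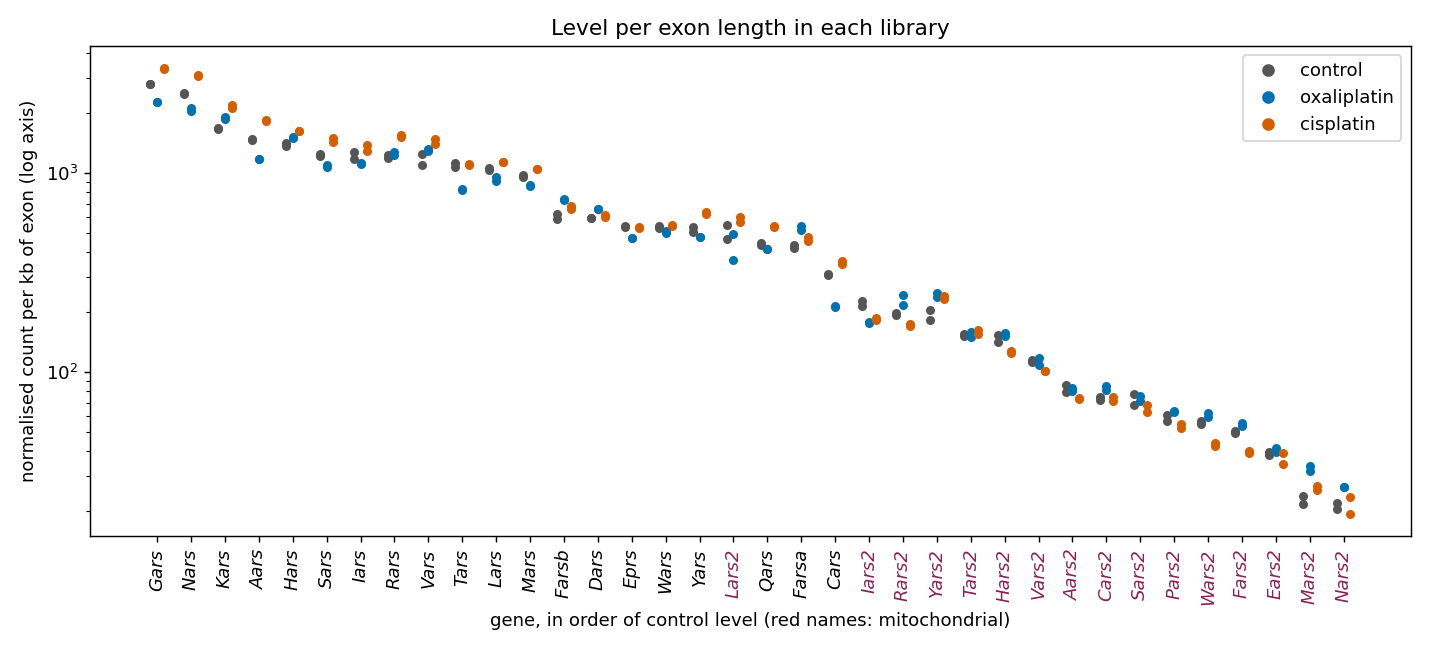
Level of each of the 36 genes per exon length. The vertical axis is the normalised count per kilobase of exon on a log axis, the horizontal axis lists the genes in order of their control level with mitochondrial genes in red, and each point is 1 of 6 libraries. Cytosolic genes fill the left of the plot, from Gars at 2797 down to Cars at 308, and Lars2 at 503 is the only mitochondrial gene among them.

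Oxaliplatin was compared with control to ask how the synthetase mRNAs responded to the drug. Oxaliplatin split the cytosolic set: 9 of 20 genes were lower and 4 were higher, with 7 not past the test. Of all 14956 genes tested, 20.2% passed the test, with 9.50% lower and 10.7% higher. The genes that fell were all among the 12 listed ATF4 targets, of which 9 fell and 0 rose, and the 4 that rose, Dars, Farsa, Farsb and Kars, were all among the 8 other cytosolic genes, of which 0 fell. The gene lists were drawn from known function, but with earlier results of these data known, so this split is descriptive. Whether ATF4 acted in it was not tested. Of the 16 mitochondrial genes 2 rose and 1 fell. The median log2 fold change was -0.19 over the listed ATF4 targets, 0.15 over the other cytosolic genes and 0.09 over the mitochondrial genes, against -0.00 over all genes tested. A gene is called changed where the adjusted p of the DESeq2 Wald test, corrected over all genes tested by Benjamini and Hochberg, was under 0.05. Values after ± are standard errors for log2 fold changes, and normalised counts were scaled by DESeq2 size factors. In bulk libraries fewer cells with an mRNA and less of it per cell cannot be told apart.

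Cars, for cysteine (chr7:143557230-143600090, minus strand), fell most. It had 2049 and 2012 normalised counts in the control libraries and 1394 and 1417 in the oxaliplatin libraries, a log2 fold change of -0.53 ± 0.07 (adjusted p = 2.36e-13 by DESeq2). The groups did not overlap, as was the case for every synthetase gene called in this comparison and for 64.8% of all genes tested. Tars had 6330.0 and 6596 normalised counts in control and 4813 and 4908 after oxaliplatin, a log2 fold change of -0.41 ± 0.04 (adjusted p = 5.68e-18 by DESeq2). Aars fell from 13728 and 13478 to 10829 and 10913 normalised counts. Its log2 fold change was -0.32 ± 0.03 (adjusted p = 1.61e-20 by DESeq2). Gars, whose enzyme serves both compartments, fell from 8727 and 8718 to 7057 and 7072 normalised counts, a log2 fold change of -0.30 ± 0.04 (adjusted p = 1.05e-14 by DESeq2). Each of these 4 genes is a listed ATF4 target. Nars, Eprs, Sars, Lars and Mars fell by smaller amounts, with log2 fold changes of -0.26, -0.20, -0.19, -0.17 and -0.15. Iars, Yars and Wars, the remaining listed ATF4 targets, had log2 fold changes of -0.13, -0.12 and -0.08 that did not pass the test. Among genes with the element for ATF4 and C/EBP, Aars, Gars and Tars thus fell and Iars and Yars did not pass. Eprs, Mars and Sars fell and had no match to the element in their promoters. Wars, an interferon-inducible gene for tryptophan, had 1808 and 1856 normalised counts in control and 1720.3 and 1750.0 after oxaliplatin (adjusted p = 0.444 by DESeq2).

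The genes that rose included both chains of the phenylalanine enzyme, which is built from alpha and beta subunits. Farsa, the alpha chain, had 1977 and 1894 normalised counts in control and 2456 and 2346 after oxaliplatin, a log2 fold change of 0.31 ± 0.07 (adjusted p = 4.78e-05 by DESeq2). Farsb, the beta chain, had 1625 and 1537 normalised counts in control and 1930.1 and 1908 after oxaliplatin, a log2 fold change of 0.28 ± 0.07 (adjusted p = 6.84e-04 by DESeq2). Kars, for lysine in both compartments, rose from 7386 and 7458 to 8468 and 8314 normalised counts, a log2 fold change of 0.18 ± 0.04 (adjusted p = 8.23e-05 by DESeq2). Dars, for aspartate, passed narrowly at 0.14 ± 0.06 (adjusted p = 0.0408 by DESeq2). Hars, Qars, Rars and Vars had log2 fold changes of 0.12, -0.07, 0.05 and 0.15 that did not pass. By catalytic class, 0 of the 9 class I genes rose and 3 fell, and 4 of the 10 class II genes rose and 5 fell, with Eprs, which holds a domain of each class, counted in neither. In the multi-synthetase complex 2 of 8 enzymes rose and 3 fell.

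Mars2, for methionine in mitochondria (chr1:55237177-55248470, plus strand), had the largest rise of any synthetase gene after oxaliplatin. It had 268 and 244 normalised counts in control and 358 and 379.7 after oxaliplatin, a log2 fold change of 0.53 ± 0.16 (adjusted p = 0.00512 by DESeq2). Yars2, for tyrosine, had 643 and 571 normalised counts in control and 779.8 and 744 after oxaliplatin, a log2 fold change of 0.33 ± 0.11 (adjusted p = 0.0166 by DESeq2). Iars2, for isoleucine, fell from 1902 and 2004 to 1580.1 and 1571 normalised counts, a log2 fold change of -0.31 ± 0.07 (adjusted p = 1.22e-04 by DESeq2). Iars2 shares 2034 exon bases with Rab3gap2 on the opposite strand, and the strand setting of the counting is not given in the sources used here. Lars2, for leucine, had a wide spread, with 5128 and 6034 normalised counts in control and 5487 and 4057 after oxaliplatin, so that the groups overlapped. The other 12 mitochondrial genes had log2 fold changes between -0.02 and 0.31 and did not pass the test. Leaving out oxaliplatin replicate 1 left 6 cytosolic calls, all lower, and ended those of Dars, Farsa, Farsb, Kars, Lars, Mars, Sars, Mars2 and Yars2, while Lars2 was then called lower. The calls of Dars and Mars were lost whichever of the 6 libraries was omitted. Leaving out oxaliplatin replicate 2 or control replicate 2 left 1 mitochondrial call, Iars2.

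**Figure D2:**
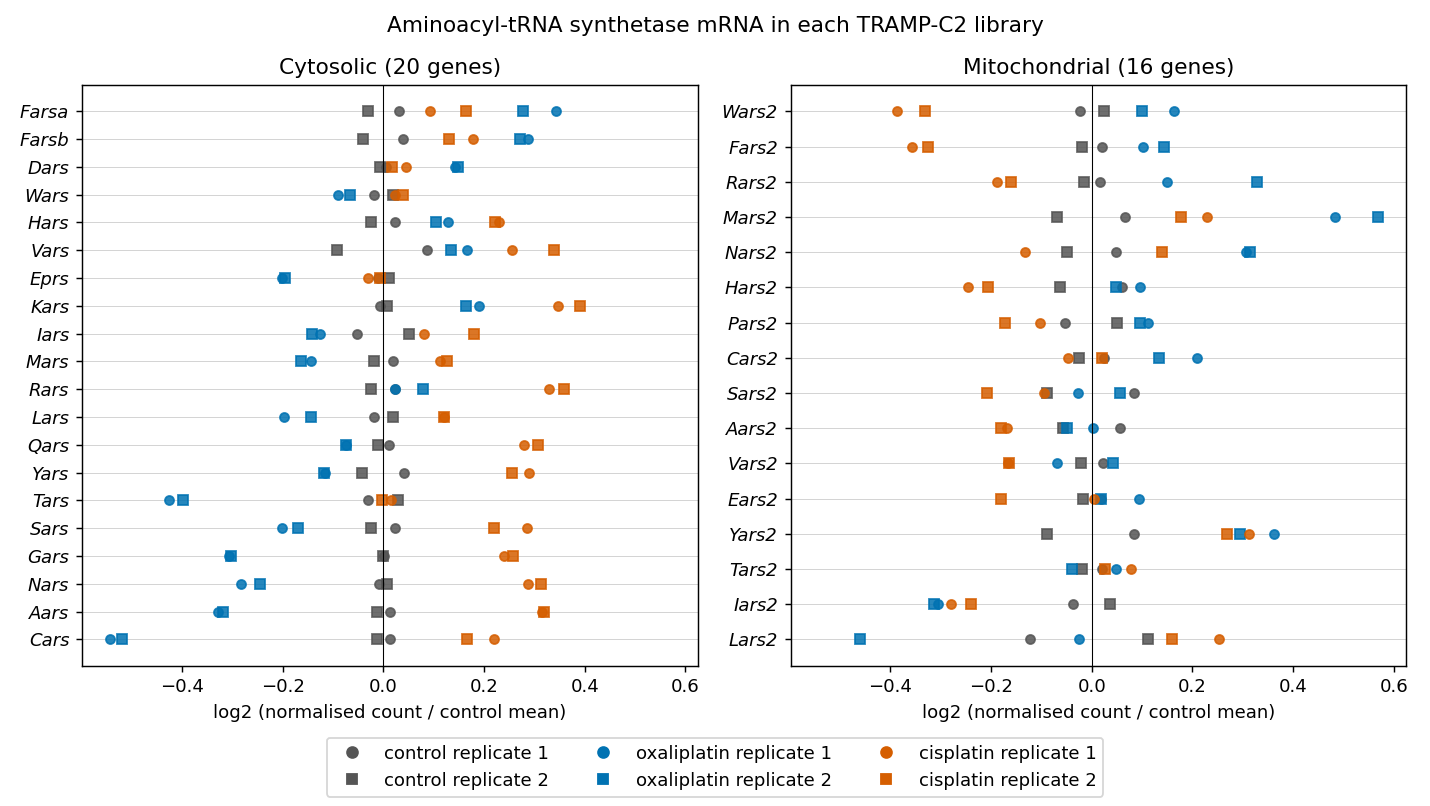
Each library of each synthetase gene. The horizontal axis is the log2 ratio of the normalised count to the control mean, genes are ordered by the difference between the drugs, circles are replicate 1 and squares replicate 2, in grey for control, blue for oxaliplatin and orange for cisplatin. At the bottom of the cytosolic panel Cars, Aars, Nars and Gars have oxaliplatin to the left and cisplatin to the right of control, and the 2 oxaliplatin libraries of Lars2 lie far apart.

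Cisplatin was compared with the same control libraries to ask the same question of the second drug. Cisplatin raised the cytosolic set: 13 of 20 genes rose, 0 fell and 7 did not pass the test, where 28.1% of all genes tested passed, with 15.7% higher and 12.4% lower. The rise took in 8 of the 12 listed ATF4 targets and 5 of the 8 other cytosolic genes. Of the 16 mitochondrial genes 1 rose and 1 fell. The median log2 fold change was 0.16 over the listed ATF4 targets, 0.26 over the other cytosolic genes, 0.21 over all cytosolic genes and -0.15 over the mitochondrial genes, against -0.00 over all genes tested. With library totals in place of size factors, 10 cytosolic genes rose and 0 fell, 0 mitochondrial genes rose and 2 fell, and all genes tested split into 1824 higher and 2376 lower rather than 2355 higher and 1848 lower.

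Kars (chr8:111993443-112011323, minus strand) rose most among the cytosolic genes. It had 9440.5 and 9734 normalised counts after cisplatin against 7386 and 7458 in control, a log2 fold change of 0.37 ± 0.04 (adjusted p = 4.38e-19 by DESeq2). The groups did not overlap, as for every synthetase gene called in this comparison and for 69.4% of all genes tested. Rars, for arginine, had 3948 and 3819.8 normalised counts in control and 4881 and 4979 after cisplatin, a log2 fold change of 0.34 ± 0.05 (adjusted p = 2.07e-10 by DESeq2). Aars rose to 16916 and 16967 normalised counts from 13728 and 13478, a log2 fold change of 0.32 ± 0.03 (adjusted p = 2.11e-20 by DESeq2). Nars, for asparagine, rose from 10788 and 10915 to 13239 and 13478 normalised counts, a log2 fold change of 0.30 ± 0.04 (adjusted p = 3.97e-15 by DESeq2). Kars and Rars are not listed ATF4 targets, whereas Aars and Nars are. Vars, for valine, had 6968 and 6159 normalised counts in control and 7835 and 8303 after cisplatin, a log2 fold change of 0.30 ± 0.06 (adjusted p = 1.46e-05 by DESeq2). Qars, for glutamine, had 2899 and 2857 normalised counts in control and 3494 and 3559.8 after cisplatin, a log2 fold change of 0.29 ± 0.05 (adjusted p = 5.97e-07 by DESeq2). Gars rose to 10298 and 10432 normalised counts from 8727 and 8718, a log2 fold change of 0.25 ± 0.04 (adjusted p = 1.77e-10 by DESeq2).

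Yars, Sars, Hars, Cars, Iars and Lars also rose, with log2 fold changes of 0.27, 0.25, 0.23, 0.19, 0.13 and 0.12. Dars, Eprs, Farsa, Farsb, Mars, Tars and Wars did not pass, with log2 fold changes between -0.02 and 0.16. Wars had 1863 and 1882 normalised counts after cisplatin (adjusted p = 0.780 by DESeq2). Tars, which fell after oxaliplatin, had 6535 and 6456 normalised counts after cisplatin against 6330.0 and 6596 in control, a log2 fold change of 0.01 ± 0.04. In the multi-synthetase complex 5 of 8 enzymes rose and 0 fell, and among the free cytosolic enzymes 8 of 12 rose and 0 fell. By class, 7 of 9 class I genes and 6 of 10 class II genes rose.

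Among the mitochondrial genes Yars2 rose again, to 754 and 731 normalised counts, a log2 fold change of 0.29 ± 0.11 (adjusted p = 0.0329 by DESeq2). Iars2 fell to 1609.7 and 1655 normalised counts, a log2 fold change of -0.26 ± 0.07 (adjusted p = 0.00142 by DESeq2). Wars2 and Fars2 had the lowest estimates, with log2 fold changes of -0.36 and -0.34 that did not pass (adjusted p = 0.0603 and 0.103 by DESeq2). Standard errors of the mitochondrial genes ran from 0.07 to 0.22 with a median of 0.15, against 0.03 to 0.07 for the cytosolic genes, and their median normalised count over all libraries was 464 against 4921, so changes of the size seen in the cytosolic set were often not detectable in the mitochondrial set. The call of Yars2 was lost when any of the 6 libraries was left out, as were those of Cars and Lars, and that of Iars2 when control replicate 2 or cisplatin replicate 1 was left out. The call of Iars was lost without any of the other 4 libraries.

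The drugs were set against each other directly, as 1 pair of compounds at the same dose and time. Oxaliplatin left 14 of 20 cytosolic genes lower than cisplatin and 1 higher, where 19.9% of all genes tested passed, with 11.3% lower and 8.62% higher. The lower genes took in 11 of the 12 listed ATF4 targets, with Wars as the exception, and 3 of the 8 others, Kars, Qars and Rars. Farsa was the 1 higher gene, at a log2 fold change of 0.18 ± 0.07 (adjusted p = 0.0297 by DESeq2). The mitochondrial set went the other way in its calls, with 4 of 16 genes higher and 0 lower after oxaliplatin. The median log2 fold change was -0.40 over the listed ATF4 targets, -0.13 over the other cytosolic genes and 0.18 over the mitochondrial genes, against -0.00 over all genes.

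The difference was largest for Cars, with 1394 and 1417 normalised counts after oxaliplatin and 2366 and 2279.8 after cisplatin, a log2 fold change of -0.72 ± 0.07 (adjusted p = 5.45e-25 by DESeq2). Aars had 10829 and 10913 normalised counts after oxaliplatin against 16916 and 16967, a log2 fold change of -0.64 ± 0.03 (adjusted p = 1.04e-80 by DESeq2). Nars had 8925 and 9161 against 13239 and 13478, a log2 fold change of -0.56 ± 0.04 (adjusted p = 2.02e-51 by DESeq2). Gars followed at -0.55 ± 0.04 (adjusted p = 9.13e-49 by DESeq2). In each of these 4 genes both oxaliplatin libraries lay below and both cisplatin libraries above control. The share of all genes with that order was not computed. The drug groups did not overlap in 68.0% of all genes tested. Kars differed less, at -0.19 ± 0.04 (adjusted p = 1.33e-05 by DESeq2), and lay above control after each drug. Sars, Tars, Yars, Qars, Lars, Rars, Iars, Mars and Eprs had log2 fold changes from -0.44 to -0.18.

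Of the 5 cytosolic genes that did not pass between the drugs, Wars had a log2 fold change of -0.11 with a 95% interval from -0.24 to 0.02, and Vars of -0.15 with an interval from -0.27 to -0.03 (adjusted p = 0.0643 by DESeq2). The intervals of Dars, from 0.00 to 0.22, Farsb, from -0.01 to 0.26, and Hars, from -0.21 to -0.01, likewise left room for small differences. These intervals are not corrected for the number of genes tested.

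Wars2, for tryptophan in mitochondria, had 369 and 353 normalised counts after oxaliplatin and 252 and 262 after cisplatin, a log2 fold change of 0.49 ± 0.15 (adjusted p = 0.00812 by DESeq2). Fars2, for phenylalanine, had 308 and 317 normalised counts against 224 and 229, a log2 fold change of 0.46 ± 0.16 (adjusted p = 0.0215 by DESeq2), and shares 501 exon bases with Nrn1 on the opposite strand. Rars2, for arginine, had 598 and 677 normalised counts against 473 and 482, a log2 fold change of 0.42 ± 0.12 (adjusted p = 0.00479 by DESeq2). In these 3 genes the oxaliplatin libraries were all above and the cisplatin libraries all below both control libraries. None of these genes passed the test against control. Of all genes tested, 64.8% did not overlap between oxaliplatin and control and 69.4% between cisplatin and control. The share of all genes with this order of the 3 groups was not computed. Hars2, for histidine, was the fourth at 0.30 ± 0.11 (adjusted p = 0.0398 by DESeq2) and shares 195 exon bases with Hars on the opposite strand. It did not have this order, with 673 and 651 normalised counts after oxaliplatin overlapping 657 and 603 in control. Yars2 and Iars2, which changed after each drug, differed between the drugs by 0.04 with a 95% interval from -0.18 to 0.25 and by -0.05 with an interval from -0.19 to 0.09. Lars2 had a log2 fold change of -0.43 with an interval from -0.83 to -0.03 and did not pass (adjusted p = 0.106 by DESeq2). When single libraries were left out, 0 to 2 of the mitochondrial calls were made, with 0 when oxaliplatin replicate 2, cisplatin replicate 1 or cisplatin replicate 2 was omitted and 2 for each of the other 3 libraries, 1 of which was a lower Lars2 when oxaliplatin replicate 1 was omitted. The 11 listed ATF4 targets were lower in every such fit, and the call of Farsa was lost in each.

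**Figure D3:**
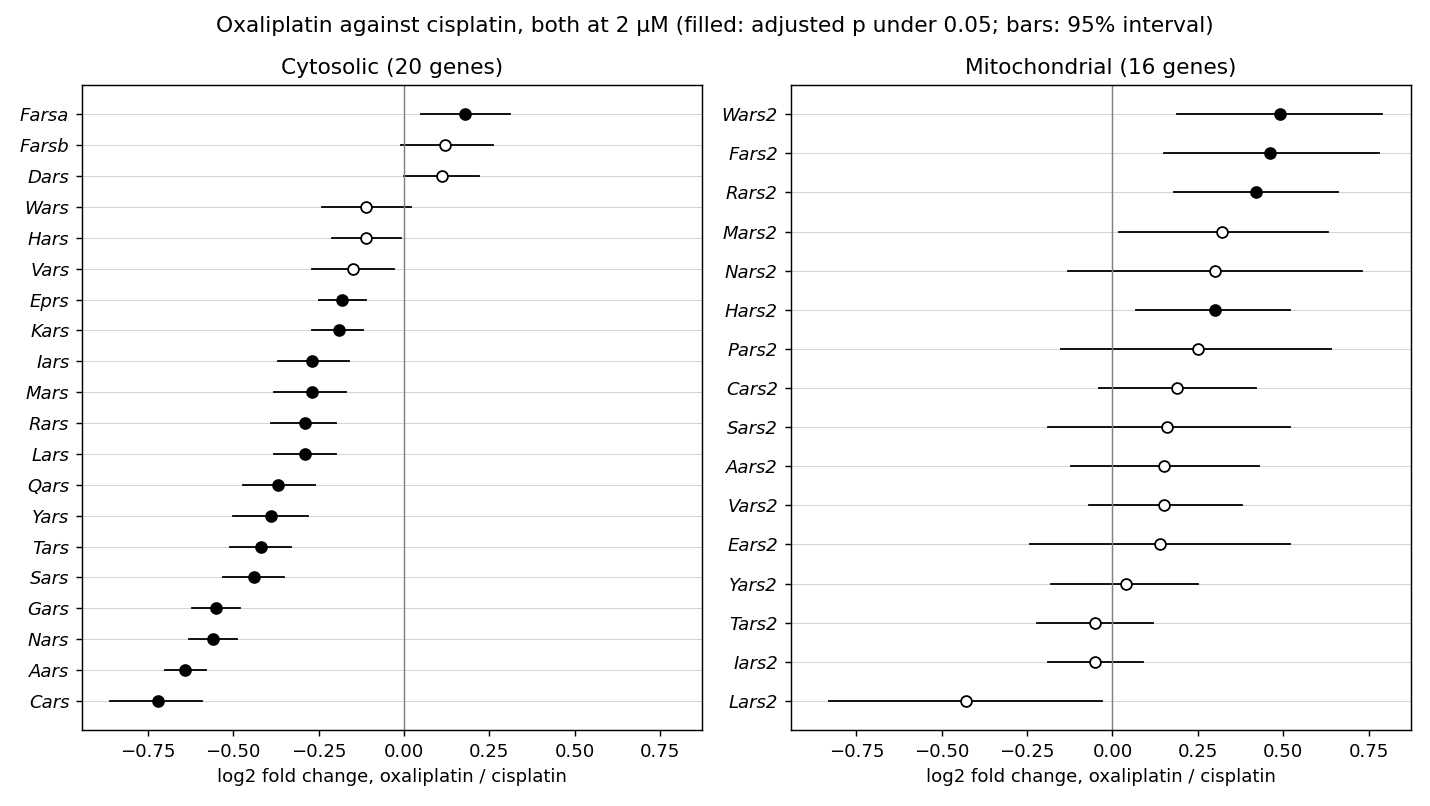
Oxaliplatin against cisplatin for each synthetase gene. The horizontal axis is the log2 fold change, points are DESeq2 estimates, bars their 95% intervals, and filled points passed an adjusted p of 0.05. In the cytosolic panel 14 filled points lie left of 0 and Farsa alone lies to the right, and in the mitochondrial panel the 4 filled points, Wars2, Fars2, Rars2 and Hars2, lie to the right.

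Summed over genes, the cytosolic synthetases took 0.49% and 0.488% of all counts in the control libraries, 0.442% and 0.444% after oxaliplatin and 0.547% and 0.551% after cisplatin. The mitochondrial synthetases took 0.0596% and 0.0631% in control, 0.0613% and 0.0547% after oxaliplatin and 0.0616% and 0.0596% after cisplatin. The groups were apart for the cytosolic sum and overlapped for the mitochondrial sum. The widely spread Lars2 was a large part of the mitochondrial sum, which was 13199 and 13920.4 normalised counts in control. Lars2 alone had 5128 and 6034 in control, 5487 and 4057 after oxaliplatin and 6651 and 6237 after cisplatin. The overlap of the sum therefore does not describe the other mitochondrial genes. The listed ATF4 targets made up most of the cytosolic sum, with 77715 and 78153 normalised counts in control, 65289 and 66000.4 after oxaliplatin and 88636 and 89162 after cisplatin. The other 8 cytosolic genes summed to 30849 and 29634 normalised counts in control, 33466 and 33119 after oxaliplatin and 36148 and 37044 after cisplatin, above control after each drug.

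For single amino acids, the ratio of the cytosolic to the mitochondrial mRNA per exon length is given for the 3 pairs whose cytosolic gene differed most between the drugs and for 2 further pairs. For alanine, the ratio of Aars to Aars2 was 17.2 and 18.2 in control, 14.1 and 14.7 after oxaliplatin and 24.7 and 25 after cisplatin. For cysteine, the ratio of Cars to Cars2 was 4.16 and 4.22 in control, 2.49 and 2.66 after oxaliplatin and 5.05 and 4.64 after cisplatin. For asparagine, the ratio of Nars to Nars2 was 113 and 122, 78.1 and 79.6, and 157 and 133 in the same order. The groups did not overlap in these 3 pairs, which were picked by the drug difference of their cytosolic gene. Both oxaliplatin ratios lay below and both cisplatin ratios above control in them, which their choice favoured. The same order was seen for Rars, Sars and Wars with their mitochondrial counterparts. After oxaliplatin Rars and Wars did not pass against control, with log2 fold changes of 0.05 and -0.08, nor did Rars2 and Wars2, with 0.24 and 0.13. The order of the ratios was not seen for Hars, Mars, Tars, Vars and Yars. The share of other gene pairs with it was not computed. The ratio of Mars to Mars2 was 41.1 and 43.8 in control, 27.4 and 25.5 after oxaliplatin and 39.1 and 40.9 after cisplatin. For isoleucine, where Iars2 fell after each drug, the ratio of Iars to Iars2 was 5.49 and 5.6 in control, 6.28 and 6.25 after oxaliplatin and 7.11 and 7.42 after cisplatin, and for leucine the groups overlapped.

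The scaffold genes of the multi-synthetase complex rose after both drugs, 3 of 3 each time, and 0 of 3 passed the test between the drugs. Of all genes tested, 10.7% rose after oxaliplatin and 15.7% after cisplatin, and 19.9% passed between the drugs. Eef1e1 had 664 and 701 normalised counts in control, 996 and 998 after oxaliplatin and 965 and 1024 after cisplatin, with log2 fold changes of 0.55 (adjusted p = 2.92e-07 by DESeq2) and 0.54 (adjusted p = 3.01e-07 by DESeq2). Aimp2 had 933 and 913 normalised counts in control, 1218 and 1218 after oxaliplatin and 1168 and 1281 after cisplatin, with log2 fold changes of 0.40 and 0.41. Aimp1 had 1580.4 and 1529 normalised counts in control, 1909 and 1942 after oxaliplatin and 1896 and 1867 after cisplatin, with log2 fold changes of 0.31 and 0.28. Between the drugs the 95% intervals were -0.18 to 0.19 for Eef1e1, -0.18 to 0.16 for Aimp2 and -0.10 to 0.16 for Aimp1. Both control comparisons share the control libraries, so their values are given side by side and not as independent results.

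Charged transfer RNA is carried to the ribosome by the elongation factor eEF1A, which is recharged by the eEF1B subunits. Of the 4 genes listed, Eef1d and Eef1g rose after each drug, by 0.18 and 0.17 on the log2 scale after oxaliplatin and by 0.22 and 0.18 after cisplatin, and Eef1a1 did not pass at 0.04 and 0.04. Eef1b2 did not pass against control, at log2 fold changes of -0.03 and 0.08, and was the 1 gene of the 4 that passed between the drugs, lower after oxaliplatin at -0.11 (adjusted p = 0.0431 by DESeq2). Of 13 genes for mitochondrial translation factors and for the amidotransferase that makes mitochondrial glutaminyl-tRNA, 0 passed DESeq2 in any comparison, with 1 at an unadjusted p under 0.05 in each. Of all genes tested, 20.2% passed after oxaliplatin, 28.1% after cisplatin and 19.9% between the drugs. In the amidotransferase, Gatb had log2 fold changes of -0.31 and -0.39 after oxaliplatin and cisplatin and Gatc of 0.27 and 0.08, none past the test. Tufm, the mitochondrial elongation factor, had log2 fold changes of 0.07 and 0.17.

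The wider amino acid response, given by 23 genes of ATF4, its partners and its known targets outside the synthetases, was set beside the synthetases. Whether ATF4 links these genes to the synthetase changes was not tested. After oxaliplatin 16 of 23 fell and 4 rose with a median log2 fold change of -0.35, where 9.50% of all genes tested fell and 10.7% rose. After cisplatin 17 rose and 0 fell with a median of 0.35, where 15.7% of all genes rose and 12.4% fell. Between the drugs 21 were lower after oxaliplatin with a median of -0.61, where 11.3% of all genes were lower. The median over all genes tested was -0.00 in each comparison. Asns, asparagine synthetase, had 4943 and 4866 normalised counts in control, 3130.5 and 3204 after oxaliplatin and 5628 and 5481 after cisplatin, with log2 fold changes of -0.63 (adjusted p = 1.84e-36 by DESeq2) and 0.18 (adjusted p = 8.09e-04 by DESeq2). Psat1, of serine synthesis, had log2 fold changes of -0.23 and 0.40, and Aldh18a1, of proline synthesis, of -0.60 and -0.04, the last not past the test. Atf4 itself had 8049 and 7691 normalised counts in control, 7563 and 7744 after oxaliplatin and 10157 and 9905 after cisplatin. Its log2 fold change was -0.04 after oxaliplatin (adjusted p = 0.562 by DESeq2), 0.35 after cisplatin (adjusted p = 5.90e-15 by DESeq2) and -0.39 between the drugs (adjusted p = 2.67e-18 by DESeq2). The 4 genes of the list that rose after oxaliplatin were the stress factors Atf3, Ddit3 and Cebpb and the phosphatase subunit gene Ppp1r15a, with log2 fold changes of 0.43, 0.62, 0.56 and 0.44. Ddit3 shares 68 exon bases with Mars on the opposite strand, and the effect of this overlap was not tested. After oxaliplatin Mars had a log2 fold change of -0.15. After cisplatin Ddit3 rose by 0.79 (adjusted p = 1.39e-18 by DESeq2) and Mars, at 0.12, did not pass.

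**Figure D4:**
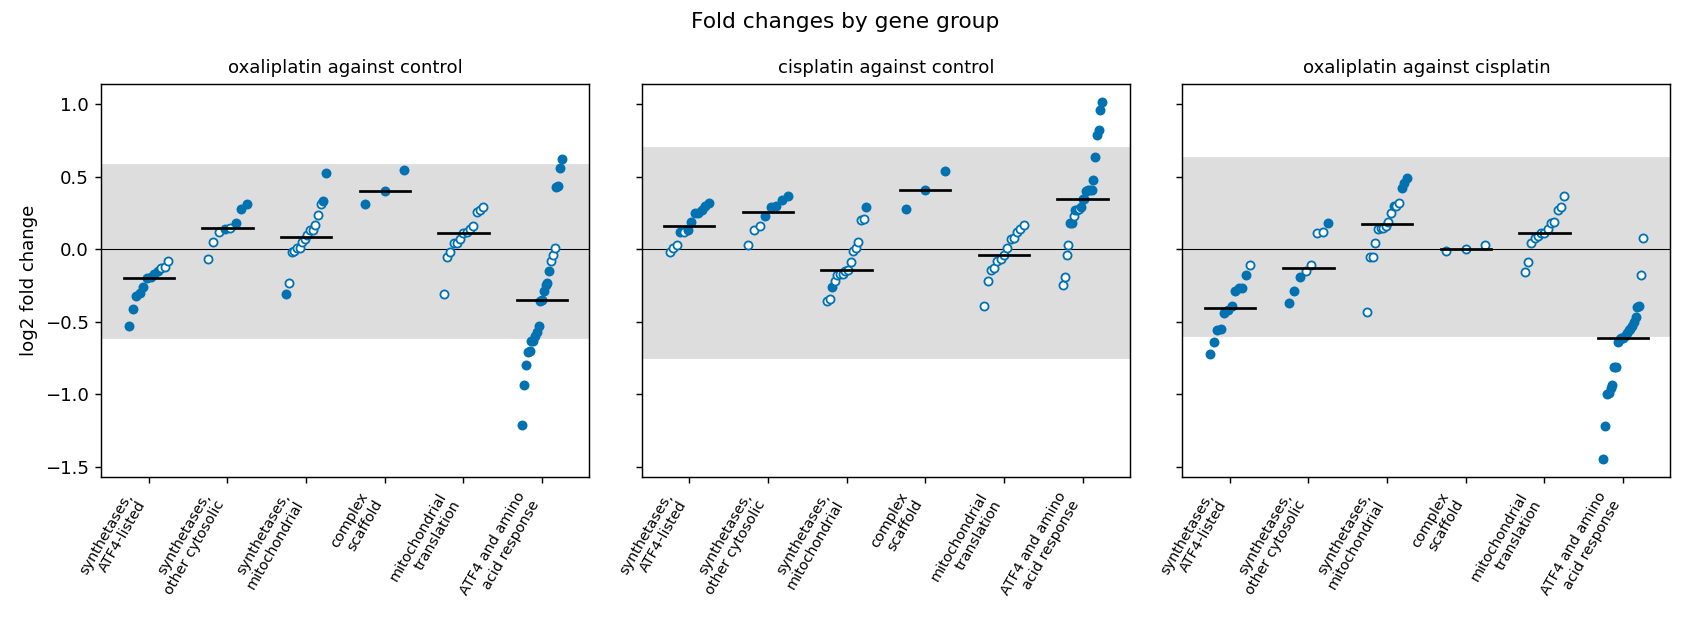
Fold changes by gene group. The vertical axis is the log2 fold change in the comparison named above each panel, each point is 1 gene, filled where the adjusted p was under 0.05, black lines are group medians and the grey band spans the central 90% of all genes tested. The listed ATF4 targets have medians of -0.19, 0.16 and -0.40 from left to right and the scaffold genes of 0.40, 0.41 and 0.00.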

How the data were processed

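Total RNA from TRAMP-C2 cells was made into stranded poly(A) libraries. The authors deposited 1 table of RSEM expected counts per gene for the 6 libraries. The submitters' processing notes name STAR 2.5.3a, RSEM 1.3.0 and GRCm38.p6, and the strand setting is not given in the sources used here. Expected counts were rounded to whole numbers. Of 54446 gene identifiers, 54409 matched GENCODE M21, which gave symbols, positions and exon lengths. Libraries were grouped by the labelled agent. The 14956 genes that reached 10 counts in 2 or more libraries were fitted in 1 DESeq2 1.42.0 model with group as the factor, using Wald tests, unshrunken fold changes, independent filtering at 0.1 and Benjamini-Hochberg adjustment. The script was tested on simulated data. Totals of 21345312 to 24041767 counts limit precision, and floors of 3 counts cover counting error only. edgeR 4.0.16, other scalings and filters, a replicate block and leaving out each library were alternatives. The members and gene lists were chosen with earlier results of these data known, the lists from known function.

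Values in every library are given, beyond a few that belong to the text, for up to 6 cytosolic and 4 mitochondrial members past the threshold with the largest absolute log2 fold change in each control comparison, up to 3 and 3 between the drugs, Wars, Gars and Kars, and up to 3 genes of each pathway list with the smallest adjusted p. Other genes in the text were chosen after their values were seen. Motifs were searched in the RefSeq promoter table. Protein sequences were not used here. Some values, among them those of certain listed genes, are not reported here.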

Additional observations from a re-analysis of the deposited data

How the results depend on the processing

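No synthetase gene turned its direction while called under any alternative run. Requiring an absolute log2 fold change of at least 1 left 0 calls in all 6 counts. With edgeR's quasi-likelihood test 6 mitochondrial genes changed after cisplatin (1 higher, 5 lower) and 7 differed between the drugs (6 higher after oxaliplatin, 1 lower). With library totals as size factors the cytosolic medians became -0.14 after oxaliplatin, 0.16 after cisplatin and -0.25 between the drugs, the mitochondrial ones -0.19 after cisplatin and 0.21 between the drugs. Without a filter on low counts, or with only the 4 libraries compared, 1 mitochondrial gene changed after cisplatin.

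The replicate numbers are shared between groups but nothing says that they pair the samples, and same-numbered libraries had correlated deviations of 0.0715, -0.0477 and -0.191 over 10731 genes. A replicate block gave 11, 10 and 14 cytosolic calls after oxaliplatin, after cisplatin and between the drugs, and 1, 1 and 1 mitochondrial calls. With the cisplatin numbers crossed, chosen after seeing the data, the block gave 12, 10 and 14 cytosolic and 1, 1 and 0 mitochondrial calls.

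With single libraries left out, where a lone library is assumed to vary like the other groups, cytosolic calls ranged from 6 to 13 after oxaliplatin, from 10 to 11 after cisplatin and from 14 to 15 between the drugs, and mitochondrial calls from 1 to 3, 0 to 1 and 0 to 2. Cytosolic medians ranged from -0.13 to -0.11, 0.19 to 0.23 and -0.30 to -0.27, and mitochondrial medians from 0.07 to 0.11, -0.17 to -0.09 and 0.18 to 0.21. The cause was not tested.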

Other observations

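Among 10730 other genes with a mean of at least 100 normalised counts, those whose log2 normalised counts followed Kars most closely over the 6 libraries were Riok3, Hmga2, Arl6ip1, Slc20a1 and Ptp4a1, each with a Pearson correlation of 0.998. Hmga2, for a chromatin-binding protein, had 2228 and 2331 normalised counts in control, 2986 and 2799 after oxaliplatin and 3739 and 3983 after cisplatin. With 6 libraries in 3 groups such correlations mostly describe the order of the groups.

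Of 6 related genes outside the members, Ankrd16, a cofactor gene of alanyl-tRNA synthetase, fell after cisplatin from 402 and 398 to 284 and 263 normalised counts, a log2 fold change of -0.55 (adjusted p = 0.00180 by DESeq2). Dtd1, which removes D-amino acids from transfer RNA, fell from 366 and 307 to 231 and 243 normalised counts, a log2 fold change of -0.51 (adjusted p = 0.0119 by DESeq2). Aarsd1, an editing gene, was higher after oxaliplatin than after cisplatin, at a log2 fold change of 0.35 (adjusted p = 0.0245 by DESeq2). Prorsd1 and Dtd2 passed in no comparison.

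Exosc6, at 111056339 to 111057664 of chromosome 8, lies inside exons of Aars on the same strand over all its 1326 exon bases and had 0 counts in every library.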
